A study of Mus musculus with 24 samples.

Results

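The untreated left ventricle of the mouse was compared between day 56 and day 28. Of the 24 left ventricle libraries of the series, the 12 titled as controls were taken. They were 3 male and 3 female libraries at day 56 (MC56 and FC56) and 3 male and 3 female libraries at day 28 (MC28 and FC28). All came from C57Bl6/J mice that were untreated by title, and no transgene or deletion is given in the labels for any of the 4 groups. An agent and a diet are given only in the treatment tags of the day 56 controls, which go against their titles. RNA was taken from the free wall of the left ventricle, so every cell type of the wall contributes. The other 12 libraries, titled MHS (a metabolic and hypertensive stress by angiotensin II with a high-fat diet) or MHS + RR, entered only where stated. The age of the mice, the event from which the days were counted and whether a library held 1 mouse or a pool were not given in the sources used here. Nor were dates of collection, extraction or sequencing, so day and any such batch cannot be told apart.

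The tags for time and treatment go against the titles in the 6 day 56 control libraries, which are tagged 28 days and AngII + HFD. The tags 56 days and no treatment stand on the 6 MHS libraries of day 28. Acta1, the skeletal alpha-actin gene known as a marker of cardiac overload, had 287, 511 and 1067 TPM (lowest, median and highest library) in the libraries titled control day 56. It had 229, 395 and 683 TPM in those titled control day 28, and 1815, 3375 and 4406 TPM in those titled MHS day 28. All 6 libraries titled control day 56 thus lay below every library titled MHS day 28, and the groups below follow the titles.

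The wall of the left ventricle is mostly cardiomyocytes by mass, cells packed with sarcomeres and mitochondria that burn mainly fatty acids. As the heart matures after birth its cardiomyocytes leave the cell cycle, adult isoforms replace fetal ones and deposition of matrix slows. Heart cells also carry the molecular clock, a feedback loop in which ARNTL with CLOCK or NPAS2 drives the Per and Cry genes, Nr1d1 and output genes such as Dbp and Tef at E-box elements. PER and CRY proteins repress that drive, and NR1D1 represses Arntl. Arntl and many of the genes it drives peak at opposite times of day.

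Levels are given in TPM, a length-corrected share of transcripts that sums to 1000000 in each library. The values hold no read counts. Sequencing depth is therefore unknown, and an error from counting cannot be given. Between 12168 and 12542 genes had a TPM of at least 1 in a library. The summed TPM of 4 Y-linked genes was 52.0 to 165 in the male libraries and 0.0538 to 2.12 in the female libraries, which separated the sexes as labelled. The ventricular light chain Myl2 was the most abundant gene in all 12 libraries, while the atrial light chain Myl7 was at 0 to 6.72 TPM in 11 libraries and at 625.1 TPM in FC28 replicate 2.

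The abundance ranking was led by contractile and energy genes. Myl2 had 33935 ± 1624 TPM at day 56 and 34695 ± 1287 TPM at day 28 (SD, n = 6 each). Mb, the oxygen store myoglobin, had 26501 ± 937 TPM at day 56 and 26362 ± 948 TPM at day 28. The cardiac actin Actc1 followed with 18896 ± 1057 TPM at day 56 and 18359 ± 2022 TPM at day 28. Then came the tropomyosin Tpm1, the troponin T gene Tnnt2, the fatty acid carrier Fabp3, the adult myosin heavy chain Myh6, the light chain Myl3, the troponin I gene Tnni3 and Slc25a4, the ADP/ATP carrier of mitochondria. Of the 30 most abundant genes 9 were sarcomere genes, and 10 belonged to the respiratory chain and ATP synthase. The calcium pump Atp2a2 stood at rank 11 and its inhibitor phospholamban, Pln, at rank 12.

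**Figure D1:**
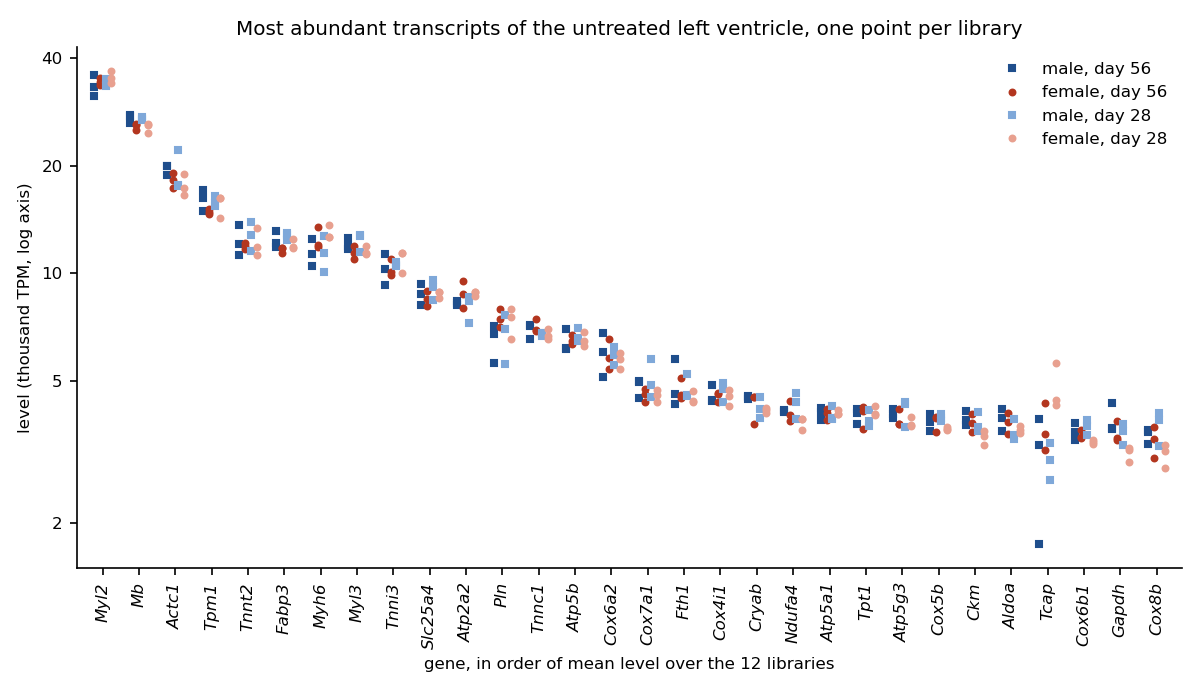
Level of the 30 most abundant genes in units of 1000 TPM on a log axis, 1 point per library, for the day 56 and day 28 controls of both sexes. The points of the days overlap for all 30 genes, and those of Tcap are the most widely scattered, between 1744 and 5597 TPM.

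The ranking was nearly the same on both days. Of the 30 highest genes at day 56, 29 were among the 30 highest at day 28, as were 98 of 100 and 197 of 200. The 10 most abundant genes held 16.2% ± 0.508 of the total at day 56 and 16.4% ± 0.315 at day 28, a difference of -0.196 percentage points (exact permutation test of day within sex, two-sided p = 0.43, smallest possible 0.005, n = 6 each). The number of genes at a TPM of at least 1 was 12393 ± 126 at day 56 and 12411 ± 134 at day 28 (same exact test, p = 0.76). Among the 200 most abundant genes the largest shift of rank was that of Ptgds, which makes prostaglandin D2, at rank 138 on day 56 and 221 on day 28. It had 1078 ± 399.6 TPM at day 56 and 693 ± 145 TPM at day 28 and was not called in the test below (log2 fold change 0.56 ± 0.26, SE). The alpha-globin gene Hba-a1, which has a near-identical copy, stood at rank 34 on day 56 and 48 on day 28.

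No gene passed the test for a difference between the days. A linear model on log2(TPM + 1) with sex as covariate (limma, adjusted p under 0.05 over 12768 tested genes) called 0 genes, which is 0% of those tested. At an unadjusted p under 0.05 there were 330 genes with a higher value at day 56 (2.58%) and 239 with a lower one (1.87%), together 569 or 4.46%. Where no gene differs, this threshold passes a share of 0.05 on average, so 4.46% is no excess. The smallest adjusted p was 0.667, and the median log2 fold change over all tested genes was 0.01. What these p-values weigh is the spread of the libraries at hand, and it may be technical where libraries do not come from separate mice. With the groups formed from the tags, which sets the libraries titled MHS day 28 in place of the day 56 controls, 2072 genes were called.

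The 95% intervals of the log2 fold change are on log2(TPM + 1), which understates the change of low genes. They are therefore counted over the 7689 tested genes averaging 10 TPM or more, and lay inside 2-fold in either direction for 7604 of these (98.9%), inside 1.5-fold for 7394 (96.2%) and inside 1.25-fold for 6352 (82.6%). For Myl2 the interval of the log2 fold change was -0.11 to 0.05, for Myh6 -0.16 to 0.11 and for Actc1 -0.08 to 0.17. It was wider for Tcap, which caps titin at the Z-disc, at -0.59 to 0.14. Gapdh, the glycolytic enzyme, was the 1 gene of the 30 most abundant with an unadjusted p under 0.05, with 3730.0 ± 328 TPM at day 56 and 3347 ± 298 TPM at day 28 and an interval of 0.04 to 0.27, and was not called.

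**Figure D2:**
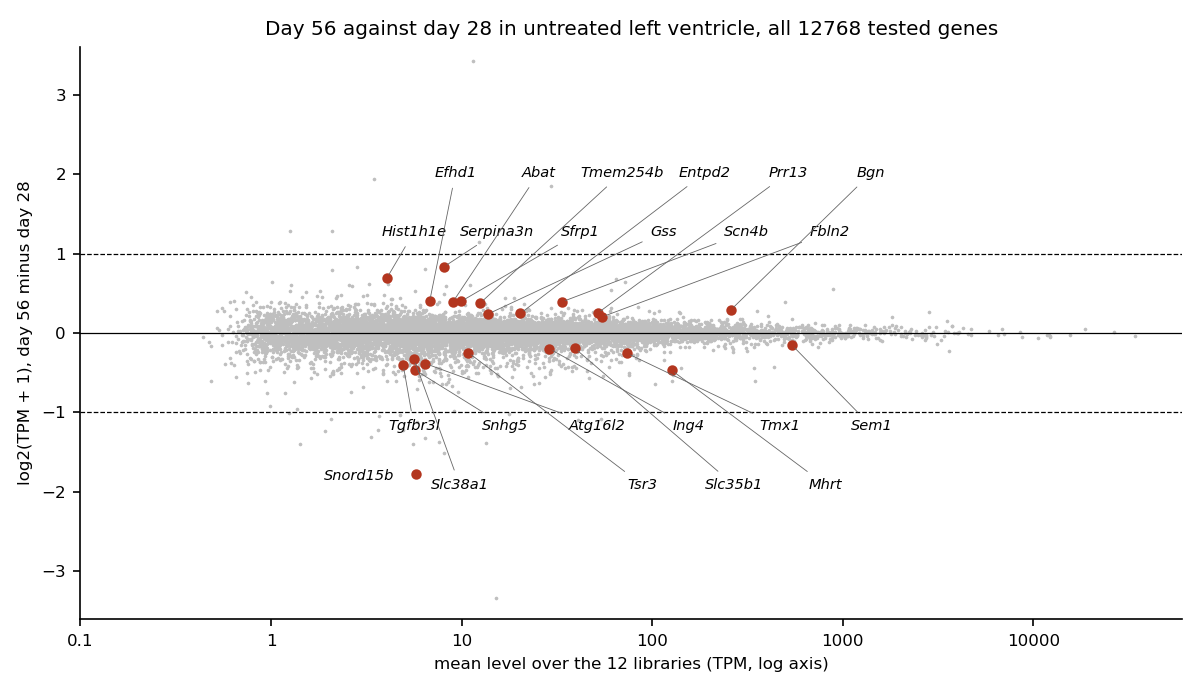
Difference in log2(TPM + 1), day 56 minus day 28, against the mean level in TPM for the 12768 tested genes, with the named genes of lowest p marked and dashed lines at a log2 difference of 1 in either direction. The cloud is centred near 0, its median being 0.01, and none of the marked genes was called.

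The 12 genes of lowest p in each direction, among those averaging 5 TPM or more on at least 1 day, are given as values. None was called, and their adjusted p ran from 0.667 to 0.980. Those with higher values at day 56 included Bgn, Fbln2 and Sfrp1, whose products are secreted. Bgn, the proteoglycan biglycan, had 241, 291 and 314 TPM at day 56, and 184, 228 and 309 TPM at day 28 (lowest, median and highest library), a log2 fold change of 0.29 ± 0.08 (SE). In Bgn the days overlapped through FC28 replicates 1 and 2, while FC28 replicate 3 and all 3 male day 28 libraries lay below every day 56 library. Fbln2, the matrix glycoprotein fibulin 2, had 54.7, 56.5 and 65.8 TPM at day 56, and 49.2, 50.3 and 52.1 TPM at day 28 (0.20 ± 0.05), and its days did not overlap. Sfrp1, a secreted Wnt antagonist, had 9.50, 11.7 and 12.96 TPM at day 56, and 6.18, 8.15 and 11.3 TPM at day 28 (0.40 ± 0.10) and overlapped through the same female libraries as Bgn.

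On the same side Scn4b, a beta subunit of voltage-gated sodium channels, had 32.2, 38.6 and 44.9 TPM at day 56, and 24.1, 29.1 and 32.04 TPM at day 28 (0.39 ± 0.09). Efhd1, a calcium-binding protein of mitochondria, had 6.24, 7.62 and 10.1 TPM at day 56, and 5.08, 5.73 and 6.14 TPM at day 28 (0.40 ± 0.08). In Scn4b and Efhd1 the lowest library at day 56 lay just above the highest at day 28. The GABA transaminase Abat had a log2 fold change of 0.39 ± 0.08, the ectonucleotidase Entpd2 0.25 ± 0.05 and the glutathione synthetase Gss 0.24 ± 0.07. Prr13 (0.25 ± 0.06) and Tmem254b (0.38 ± 0.08) did not overlap between the days. Tmem254b has near-identical neighbours, between which its reads may be split, so its value is uncertain.

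The largest of the higher values belonged to Serpina3n, a secreted protease inhibitor of the acute phase, and to the linker histone gene Hist1h1e. Serpina3n had 3.87, 8.54 and 21.8 TPM at day 56, and 2.30, 5.30 and 9.57 TPM at day 28 (0.83 ± 0.20). On each day every male library was above every female one for this gene, with 15.6 TPM in MC56 and 7.84 TPM in MC28, and 5.86 TPM in FC56 and 2.88 TPM in FC28. Hist1h1e had 3.95, 5.14 and 6.62 TPM at day 56, and 1.60, 3.21 and 4.07 TPM at day 28 (0.69 ± 0.14). Most replication-linked histone messages lack a poly(A) tail, and the libraries were made with a kit for messenger RNA.

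**Figure D3:**
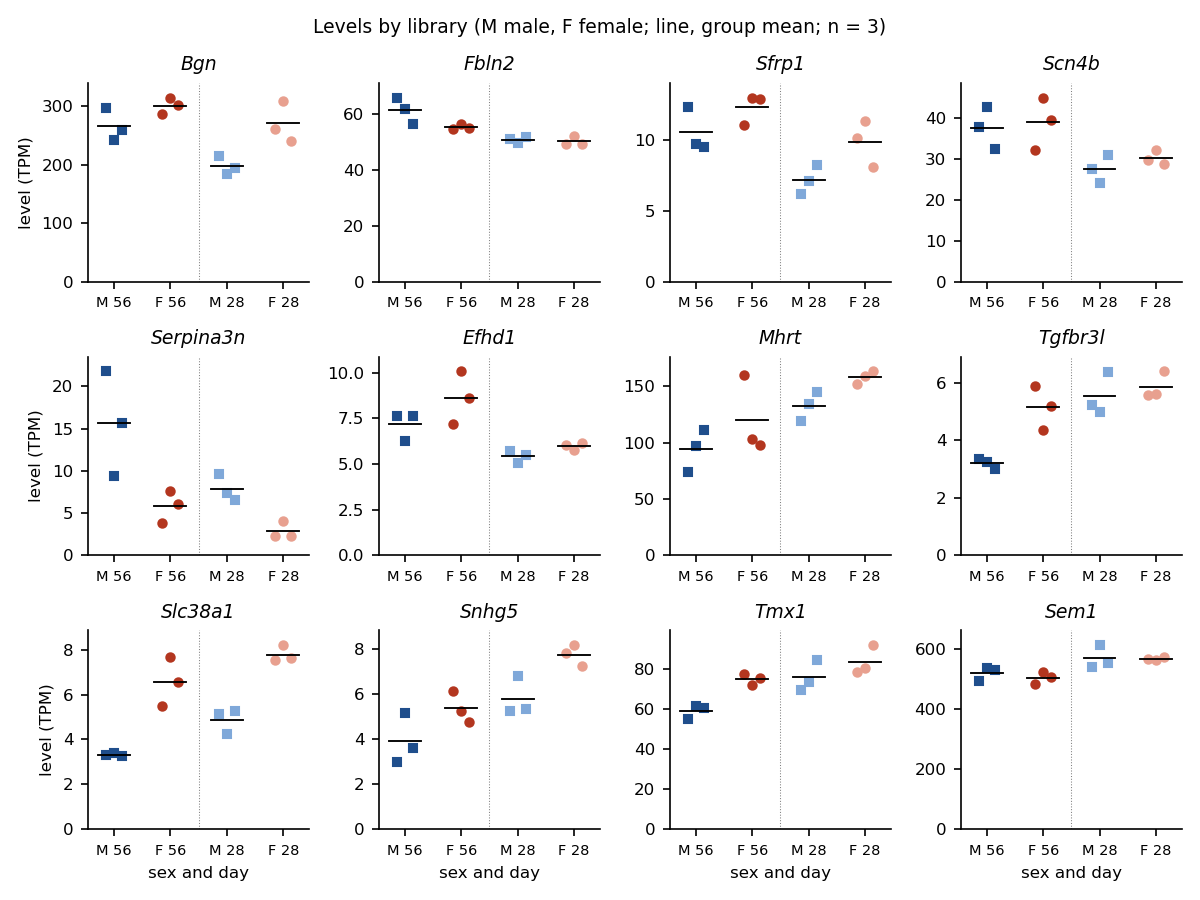
Level in TPM of 12 genes of low p in the day comparison, 1 point per library and a line at each group mean (n = 3), with the day 56 groups left of the day 28 groups. Fbln2, Scn4b, Efhd1 and Sem1 do not overlap between the days, and the other 8 genes do.

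Noncoding RNAs were among the genes with lower values at day 56. Mhrt, a noncoding transcript of the myosin heavy chain locus known from the mouse heart, had 73.6, 101 and 160.0 TPM at day 56, and 119, 148 and 163 TPM at day 28 (-0.47 ± 0.12). It runs antisense to Myh7, and whether the quantification used strand was not given in the sources used here. The fetal myosin gene Myh7 itself had 30.1, 37.9 and 65.98 TPM at day 56, and 21.1, 37.1 and 83.9 TPM at day 28 (0.01 ± 0.23). Snhg5, a host transcript of small nucleolar RNAs, had 2.99, 4.98 and 6.17 TPM at day 56, and 5.27, 7.02 and 8.18 TPM at day 28 (-0.47 ± 0.11). Snord15b, itself a small nucleolar RNA, was listed at 0 in 2 day 56 libraries and had up to 9.15 TPM in the others, against 5.84 to 15.8 TPM at day 28. RNAs as short as Snord15b are poorly held by libraries made for messenger RNA. Of the 12 lower genes, 1 was a predicted gene without a functional name.

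Other lower values belonged to protein-coding genes. Slc38a1, a glutamine transporter, had 3.24, 4.45 and 7.66 TPM at day 56, and 4.23, 6.39 and 8.20 TPM at day 28 (-0.33 ± 0.08). Sem1, a small subunit of the proteasome lid, had 483, 515 and 537 TPM at day 56, and 541, 566 and 613 TPM at day 28 (-0.15 ± 0.04), with no overlap. Tmx1, a thioredoxin-like protein of the endoplasmic reticulum, had 55.2, 67.1 and 77.6 TPM at day 56, and 69.9, 79.8 and 92.2 TPM at day 28 (-0.25 ± 0.06). At day 56 every male library was below every female one for Slc38a1 and Tmx1. In males their log2 fold changes were -0.44 ± 0.12 and -0.35 ± 0.09, in females -0.22 ± 0.12 and -0.15 ± 0.09, with no call for the difference between the sexes. Slc35b1, a nucleotide sugar and ATP carrier of the endoplasmic reticulum, had -0.19 ± 0.05, the autophagy gene Atg16l2 -0.38 ± 0.10, the chromatin reader Ing4 -0.20 ± 0.05, the ribosomal RNA modifying enzyme Tsr3 -0.24 ± 0.07 and Tgfbr3l -0.40 ± 0.10.

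In 12 genes all 6 day 56 libraries were higher than all 6 day 28 libraries (0.094% of the tested genes), and in 12 they were lower (0.094%). The number that chance would give was not computed, so no gene is shown to differ by this separation. The differences were between 0.09 and 0.46 in size on the log2(TPM + 1) scale. By their TPM means 2 of the 24, Mfsd4a (1.60-fold) and Enkd1 (1.62-fold), were at least 1.5-fold apart, both low genes, with Mfsd4a at 2.72 TPM at day 56 and 1.70 TPM at day 28. Of the 24 genes of lowest p at 5 TPM or more, described above, 6 were among them, Fbln2, Scn4b, Efhd1, Prr13, Tmem254b and Sem1. The others, named after their values were seen, included on the higher side Mfsd4a (0.46), the complement receptor C3ar1 (0.22), the phosphatase Ptprj (0.18) and Colgalt1 (0.12), which adds galactose to collagen. On the lower side were Pnmt (-0.30), the enzyme that makes adrenaline, the interferon-induced GTPase Igtp (-0.20) and Ppp1r14c (-0.17), an inhibitor of protein phosphatase. Pnmt had 0.857, 1.07 and 1.17 TPM at day 56, and 1.33, 1.57 and 1.68 TPM at day 28. The lowest p of all belonged to Ano5, an anoctamin membrane protein of muscle, with 0.726, 1.30 and 2.42 TPM at day 56, and 0.184, 0.435 and 1.09 TPM at day 28 (0.64 ± 0.12). It was under the level set for named genes, and it was called only after correction for GC content and transcript length (limma adjusted p = 0.0165).

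Within the sexes limma again called 0 genes. In males the count was 0 (0%), with 318 genes at an unadjusted p under 0.05 (2.49%, of which 1.44% higher and 1.05% lower at day 56). In females it was 0 (0%), with 403 (3.16%, of which 1.69% higher and 1.46% lower). The female minus male difference of the day effect gave 0 genes (0%) and 222 unadjusted (1.74%, of which 0.869% higher and 0.869% lower), so no gene was shown to differ between the sexes in its day effect. Genes were again named only where the largest group mean was 5 TPM or more. In males the lowest p among these belonged to Bgn, Fbln2, Abat and Entpd2 on the higher side, and to Tgfbr3l (-0.63 ± 0.12), Tmx1 and Slc38a1 on the lower. They were joined by Sulf1, an enzyme that trims heparan sulfate, with 10.9, 11.5 and 11.5 TPM in MC56 and 8.05, 8.54 and 9.56 TPM in MC28 (0.34 ± 0.09, against -0.02 ± 0.09 in females). The nuclear receptor gene Nr4a3 had 2.20, 2.54 and 2.81 TPM in MC56 and 4.74, 4.96 and 5.58 TPM in MC28 (-0.79 ± 0.21, against 0.28 ± 0.21 in females). Neither Sulf1 nor Nr4a3 overlapped between the male groups. Both were picked for low p, and the share of all genes without overlap within a sex was not counted.

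In females, with the same limit of 5 TPM, the lowest p on the higher side belonged to Hist1h1e, described above. It had 4.83, 5.14 and 5.15 TPM in FC56 and 1.60, 1.81 and 2.87 TPM in FC28 (0.99 ± 0.17, against 0.39 ± 0.17 in males). Prr13 was also among the 5 on that side, at 0.35 ± 0.08. Gchfr, the feedback regulator of tetrahydrobiopterin synthesis, had 10.95, 12.3 and 12.6 TPM in FC56 and 6.32, 7.39 and 7.90 TPM in FC28 (0.66 ± 0.12, against 0.05 ± 0.12 in males). The deubiquitinase gene Otud1 had 19.98, 20.7 and 25.5 TPM in FC56 and 33.95, 34.4 and 38.1 TPM in FC28 (-0.67 ± 0.12, against 0.23 ± 0.12 in males). Both genes kept the female groups apart, Gchfr with higher and Otud1 with lower values at day 56, but they too were picked for low p. The chemokine gene Cxcl14 had 0.75 ± 0.19, the secreted glycoprotein gene Lrg1 0.44 ± 0.10 and Mid1ip1, a regulator of fatty acid synthesis, -0.61 ± 0.14. Amd2, a polyamine enzyme gene that shares reads with a near-identical copy and is therefore uncertain, had -0.38 ± 0.07. With each library weighted by its quality (limma array weights) Gchfr, Otud1, Amd2 and the microRNA gene Mir8094 were called in females, at adjusted p from 0.0423 to 0.049.

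The mature sequences of Mir8094 and of Mir8114, the gene of largest spread at 10 TPM and above, are shown because the values of both genes switched between 0 and many TPM. They come from RefSeq (GRCm38.p6), and capitals mark the seed, bases 2 to 8.
mmu-miR-8094 (chr17:35251314-35251334, plus strand): aACUGAAGgacaacgagaaga
mmu-miR-8114 (chr1:153899989-153900009, plus strand): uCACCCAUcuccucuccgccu
The seeds differ. Mir8094 was listed at 0 in all 3 FC56 libraries and had 7.57, 10.5 and 24.04 TPM in FC28, while males had 2.75, 11.5 and 14.8 TPM in MC56 and 0, 4.39 and 15.3 TPM in MC28. Mir8114 was listed at 0 in 6 of the 12 libraries and had 18.02 to 89.3 TPM in the other 6, which came from all 4 groups. The annotated genes are 117 and 111 bases long, short for a library of messenger RNA fragments, and an exact 0 in such values can be a failed estimate.

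Gene groups of postnatal growth, contraction, metabolism and stress were then counted, each against 2.58% higher and 1.87% lower over all tested genes at an unadjusted p under 0.05. In each of the 41 lists with a tested member 0 members were called. Over all tested genes 53.9% had a positive value, and counts of positive members stand beside that share. Of the 37 lists with at least 5 tested members, 34 had a median log2 fold change within 0.15 of 0. The exceptions were adipocyte markers (-0.30), atrial cardiomyocyte markers (-0.23) and erythroid genes (0.23). The adipocyte and atrial medians rested on FC28 replicate 2, described below, and were -0.06 and -0.04 without it, while the erythroid median was 0.20.

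Matrix genes were counted first. Of the fibrillar collagens and growth matrix genes 5 of 35 had an unadjusted p under 0.05 on the higher side and 0 on the lower, and 29 were positive, with a median of 0.10 against 0.01 over all genes. The lowest p after Bgn belonged to the membrane metalloprotease gene Mmp14, with 13.2, 15.9 and 17.5 TPM at day 56, and 11.6, 13.3 and 15.3 TPM at day 28 (0.23 ± 0.08). The crosslinking enzyme genes Loxl1 and Loxl2 had 0.20 ± 0.07 and 0.19 ± 0.07. The collagen genes Col1a1 (0.18 ± 0.09) and Col3a1 (0.17 ± 0.08) had unadjusted p of 0.0549 and 0.0621 (limma), and the matricellular gene Postn had -0.06 ± 0.15. All of these overlapped between the days. Basement membrane genes had 0 of 16 on either side and a median of 0.05.

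Fibroblast markers had 1 of 14 on the higher side, 12 positive and a median of 0.12. Col1a1, Dcn, Lum, Mfap5 and Postn are also on the list of matrix genes above, so the lists are not independent. Their summed level was 1949 to 2446 TPM at day 56 and 1872 to 2873 TPM at day 28, the highest being that of FC28 replicate 2. In bulk tissue fewer cells of a type and less RNA per cell cannot be told apart, and the part of fibroblast content in the matrix values was not tested.

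Proliferation genes were low on both days. Of 28 listed, 21 were tested, with a median level of 1.62 TPM and a median log2 fold change of 0.02. The 1 with an unadjusted p under 0.05 was Ube2c, a ubiquitin-conjugating enzyme of mitosis, with 1.77, 3.16 and 4.63 TPM at day 56, and 1.27, 1.49 and 2.81 TPM at day 28 (0.60 ± 0.17). Mki67, the proliferation antigen Ki-67, had 0.301, 0.874 and 2.21 TPM at day 56, and 0.493, 1.30 and 2.41 TPM at day 28 (-0.22 ± 0.23), and the topoisomerase gene Top2a had 0.02 ± 0.18. Mki67 and Top2a overlapped widely. Imprinted growth genes had 1 of 14 on the lower side, the maternally expressed noncoding RNA Meg3, with 2.94, 5.56 and 6.18 TPM at day 56, and 5.53, 8.02 and 8.996 TPM at day 28 (-0.49 ± 0.14). Igf2, the fetal growth factor, had 0.00 ± 0.15, and its noncoding neighbour H19 had 0.18 ± 0.21.

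Sarcomere genes had 0 of 22 on either side and a median of -0.02. Genes of stretch and wall stress had 2 of 20 on the higher side, among them the ubiquitin hydrolase gene Uchl1 (0.22 ± 0.08), and scattered widely. Nppa, the atrial natriuretic peptide gene, had 174, 279.9 and 433 TPM at day 56, and 257, 303 and 494 TPM at day 28, with an interval of -0.75 to 0.29 on the log2 scale. Nppb, the brain natriuretic peptide gene, had 268, 325 and 752 TPM at day 56, and 173, 301 and 561 TPM at day 28, with an interval of -0.27 to 0.82. Both intervals include 0.

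Citric acid cycle, respiratory chain and fatty acid oxidation genes had the smallest median spread within groups of these 37 lists. Fatty acid oxidation genes had 0 of 38 on either side, with log2 fold changes between -0.20 and 0.18, and citric acid cycle genes 0 of 18, between -0.07 and 0.08. Respiratory chain and ATP synthase genes had 4 of 42 on the lower side and 0 on the higher, between -0.14 and 0.07, with a median of 0.00. In glycolysis and glycogen metabolism 1 of 28, Gapdh, was on the higher side, and 23 were positive with a median of 0.04. Cytosolic ribosomal protein genes had 1 of 39 on the lower side and 12 positive, with a median of -0.02.

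Macrophage markers had 3 of 20 on the higher side, among them the resident macrophage gene Lyve1 (0.33 ± 0.12) and the lipid receptor gene Trem2 (0.38 ± 0.15), and 16 positive. Antigen presentation genes had 3 of 18 on the lower side, among them the class II genes H2-Eb1 (-0.33 ± 0.11) and H2-Ab1 (-0.33 ± 0.12). H2-Eb1 had 27.7, 36.7 and 54.1 TPM at day 56, and 34.8, 51.4 and 73.3 TPM at day 28. The summed level of macrophage markers was 653 to 1023 TPM at day 56 and 677 to 884 TPM at day 28, and its part in these values was not tested.

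Hormone and stress lists held a few genes of low p. Of the renin-angiotensin and natriuretic receptor genes 3 of 19 were on the higher side, with the lowest p for Ace, the angiotensin-converting enzyme, at 26.02, 31.6 and 46.5 TPM at day 56, and 19.4, 28.1 and 38.1 TPM at day 28 (0.24 ± 0.08). Of the glucocorticoid response genes 2 of 20 were on the higher side, the chaperone gene Fkbp5 (0.22 ± 0.06) and the metallothionein gene Mt2 (0.68 ± 0.30). Mt2 had 179 TPM in MC56 replicate 1 and at most 99.4 TPM in the other 11 libraries. Immediate early genes had 1 of 22 on the lower side, Zfp36, which destabilises inflammatory messages (-0.30 ± 0.11), and 4 positive, with a median of -0.11. Genes of the unfolded protein and integrated stress response had 2 of 26 on the lower side and 5 positive, with a median of -0.07. Of the erythroid genes 1 of 8, the heme synthesis gene Alas2 (0.36 ± 0.16), was on the higher side, with summed levels of 4143 to 7185 TPM at day 56 and 2929.5 to 7199.7 TPM at day 28.

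The spread between libraries of 1 group was small for most genes. The median residual SD was 0.148 on the log2 scale, which is 1.11-fold, and it was 0.227 for genes under 2 TPM and 0.0853 for genes over 1000 TPM. The 10 steadiest genes at 10 TPM and above included 2 of the citric acid cycle. Suclg1, a subunit of succinyl-CoA ligase, had 549 to 600.1 TPM at day 56 and 560.0 to 609.8 TPM at day 28, with a residual SD of 0.0208. Idh3b, a subunit of isocitrate dehydrogenase, had 1232 to 1302 TPM at day 56 and 1245 to 1353 TPM at day 28. Myzap, a protein of the intercalated disc, had 448 to 491 TPM at day 56 and 441 to 486 TPM at day 28. At the other end stood, among others, Mir8114, the atrial genes Myl7 and Myl4, the Z-disc gene Nexn and the clock gene Dbp.

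The atrial genes were high in 1 library. FC28 replicate 2 had 625.1 TPM of Myl7, 442 TPM of the atrial light chain Myl4 and 173 TPM of Sln, the sarcolipin that inhibits the calcium pump in atria. The highest values in the other 11 libraries were 6.72, 9.17 and 1.78 TPM. The summed atrial markers were 223 to 476 TPM at day 56 and 302 to 409 TPM in the other 5 day 28 libraries, against 1894 TPM in FC28 replicate 2. That library also had the highest level of the fat hormone gene Adipoq, 9.96 TPM. Without it limma called 0 genes between the days.

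The genes of largest spread were longer and poorer in GC than the rest. The 200 genes of largest spread at 10 TPM and above had a median length of 4842 bases, against 3222 bases for all such genes, and 107 of the 198 with a known length were at least 4611 bases long, 54.0% against 24.99% of all. Their median GC content was 40.9%, against 50.1% for all. Several genes of large spread were lowest in the same 2 libraries. Nexn, an actin-binding protein of the Z-disc whose transcript of 2564 bases is not long, had 64.5 TPM in MC56 replicate 1 and 134 TPM in MC28 replicate 1, and 196 to 573 TPM in the other 10 libraries. The same libraries had 12.8 and 38.4 TPM of the actin-binding repeat protein gene Xirp2 (11979 bases), 3.98 and 8.99 TPM of the kinase gene Rock1 (6440 bases), and 23.5 and 53.7 TPM of the nuclear RNA Malat1 (6983 bases). For Nexn, Xirp2, Rock1 and Malat1 these were the lowest levels of the 12 libraries. GC content and length together accounted for 38.2% and 39.9% of the deviations of these libraries from the mean over all genes, and for 4.88% to 24.2% in the other 10. Across genes these deviations had a Spearman correlation with GC content of 0.48 and 0.49 in the same libraries and between -0.47 and 0.33 in the other 10. The longest transcripts were lowest in another library, MC28 replicate 2, which had 460.9 TPM of Nexn. Without MC56 and MC28 replicates 1, limma called 0 genes between the days, an alternative chosen after seeing the data.

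**Figure D4:**
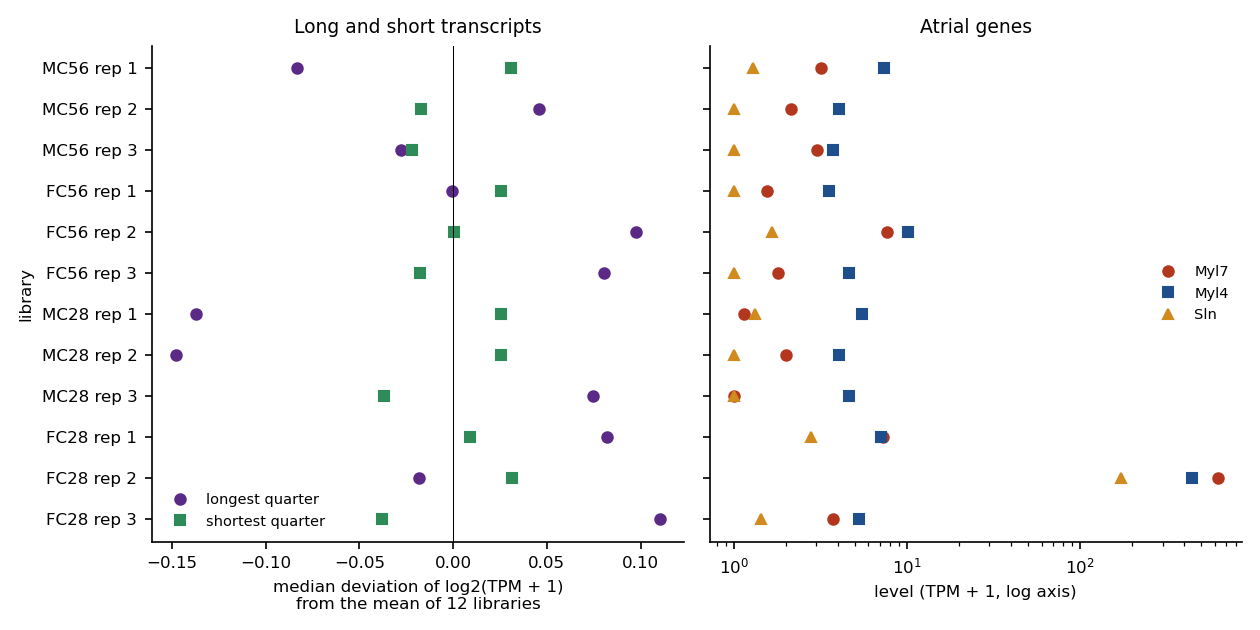
Left, median deviation of log2(TPM + 1) from the mean of the 12 libraries for the longest and the shortest transcripts (upper and lower quartile of length) in each library, lowest for the longest in MC28 replicates 2 and 1 at -0.148 and -0.137. Right, level of Myl7, Myl4 and Sln as TPM + 1 on a log axis, where FC28 replicate 2 stands above all other libraries.

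Clock genes spread widely and in a common order. Arntl had 7.46, 11.5 and 24.99 TPM at day 56, and 2.41, 8.47 and 15.7 TPM at day 28, a 10.4-fold range over the 12 libraries, and a log2 fold change between days of 0.60 ± 0.32 that was not called. Dbp, an output transcription factor of the loop, had 25.7, 130.1 and 181 TPM at day 56, and 59.4, 159 and 304 TPM at day 28, an 11.8-fold range. MC56 replicate 2 had the most Arntl and the least Dbp, Per1, Per2, Per3, Ciart and Tef of the 12 libraries. FC28 replicate 2 had the least Arntl and the most of those 6 genes. The time of day at which hearts were taken was not given in the sources used here, and its part in these levels was not tested.

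Each tested gene was then set against the Arntl level of its library with sex and day as covariates, in a limma model chosen after the spread had been seen. It called 23 of 12767 genes, 0.18%, of which 16 had a negative slope (0.125%) and 7 a positive one (0.0548%). Of the 34 tested genes of the core clock loop and clock output lists, 13 were called, 12 with a negative slope and 1 with a positive one. Per unit of log2 Arntl, Ciart, a repressor of the loop, changed by -1.44 ± 0.16 on the log2 scale (SE), Dbp by -1.18 ± 0.17, the repressor gene Per2 by -0.98 ± 0.10 and the output factor gene Tef by -0.52 ± 0.04. The others with a negative slope were Cry2 and Per3 of the repressor arm, the transcription factor genes Bhlhe41 and Hlf, the mitotic kinase gene Wee1, the deubiquitinase gene Usp2, Tspan4 and Coq10b. The positive slope was that of Npas2, the partner of ARNTL, at 0.60 ± 0.09.

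The number of calls rested in part on single libraries. It was 6 without MC56 replicate 1, 8 without MC56 replicate 3 and 11 without FC56 replicate 2, with 5, 6 and 6 clock genes among them. With the 4 groups as covariate it was 13, with 7 clock genes, and 53, with 14, where levels were corrected for GC content and length. All 3 FC28 libraries had less Arntl than the other 9, and in females the days did not overlap, with 7.46, 12.4 and 15.3 TPM in FC56 and 2.41, 4.31 and 5.92 TPM in FC28 (1.29 ± 0.38, not called). In females the order by Arntl therefore follows the order by day.

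**Figure D5:**
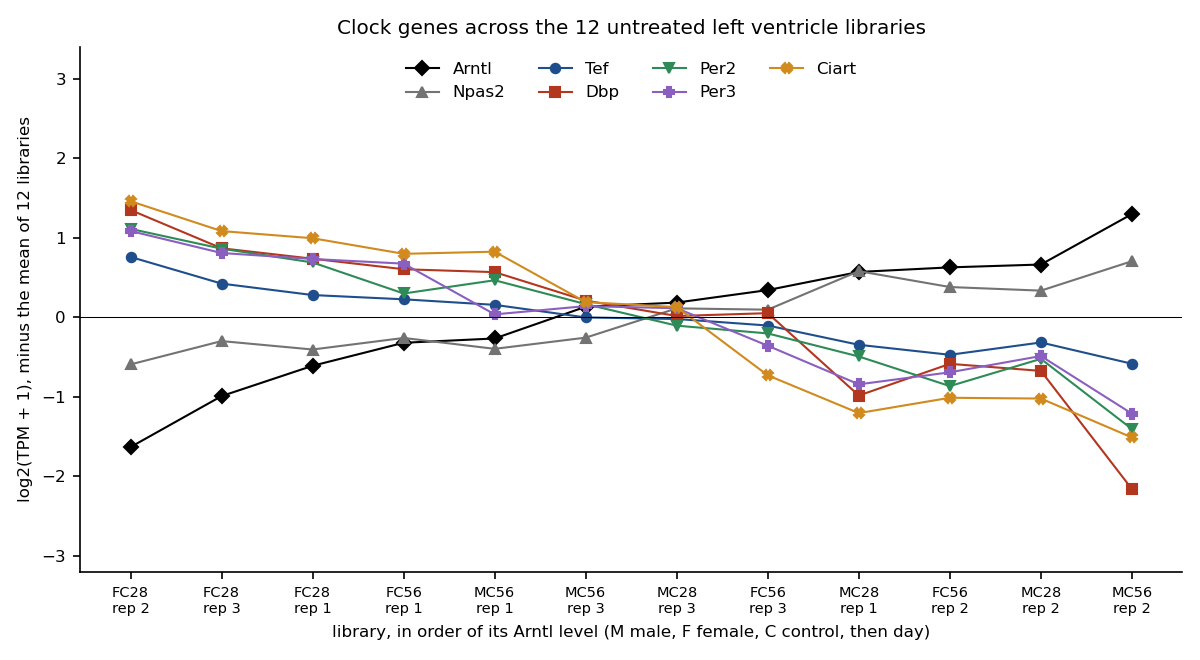
Level of clock genes in each of the 12 control libraries, as log2(TPM + 1) minus the mean of the 12, with the libraries in order of their Arntl level. Npas2 follows Arntl from FC28 replicate 2 to MC56 replicate 2, while Tef, Dbp, Per2, Per3 and Ciart run the other way.

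Correlations with Arntl over the 12 libraries, 34 in all, were computed beside the model (permutation test with 100000 resamples, two-sided). For Tef Pearson's r was -0.98 (p = 1e-05, the smallest the resamples can give) and Spearman's rho -0.98 (p = 1e-05), and the limma slope had an adjusted p of 0.000748 over all genes. For Per2 r was -0.96 (p = 1e-05) and rho -0.99 (p = 1e-05), with a limma adjusted p of 0.00354. For Npas2 r was 0.90 (p = 5e-05) and rho 0.93 (p = 6e-05), with a limma adjusted p of 0.0141. Without FC28 replicates 2 and 3, the libraries farthest from the median Arntl on the log2(TPM + 1) scale, r was -0.97 for Tef, -0.98 for Per2 and 0.93 for Npas2. Without MC56 replicate 2 and FC28 replicate 2, the farthest in TPM, it was -0.97, -0.96 and 0.85. Tef, Per2 and Npas2 were called by the model in the same libraries, so these correlations are no separate support for it.

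Not all clock genes followed Arntl. Nr1d1, a repressor of Arntl, had 90.5, 169.6 and 231 TPM at day 56, and 109, 162 and 182 TPM at day 28 and a slope of -0.26 ± 0.14 (limma adjusted p = 0.691). Per1 had a slope of -0.79 ± 0.15 and narrowly missed the threshold (limma adjusted p = 0.0788), and Cry1, Clock and Rora were not called. The 10 called genes outside the clock lists, named after their values were seen, included Tcap (-0.46 ± 0.08), the most variable of the 30 most abundant genes, and Ptgds (0.76 ± 0.09), the abundant gene whose rank shifted most between the days. Rrad, a small GTPase that restrains calcium channels, had 0.41 ± 0.06, the collagen genes Col5a3 and Col14a1 had 0.53 ± 0.06 and -0.37 ± 0.06, and the macrophage-secreted Retnla had -0.81 ± 0.11.

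The promoters of Ciart, Tef, Bhlhe41 and Per1 are shown because each holds an E-box, the element through which ARNTL complexes are known to act, and the level of each gene ran opposite to that of Arntl. They span 250 bases before to 50 bases after the start of the gene and come from RefSeq (GRCm38.p6), a later build than the mm9 named for the deposited values. Capitals mark the E-box CACGTG, which reads the same on both strands, and AGGTCA on either strand, a half-site bound by NR1D1 and the ROR receptors.
Ciart promoter (chr3:95882179-95882478, minus strand): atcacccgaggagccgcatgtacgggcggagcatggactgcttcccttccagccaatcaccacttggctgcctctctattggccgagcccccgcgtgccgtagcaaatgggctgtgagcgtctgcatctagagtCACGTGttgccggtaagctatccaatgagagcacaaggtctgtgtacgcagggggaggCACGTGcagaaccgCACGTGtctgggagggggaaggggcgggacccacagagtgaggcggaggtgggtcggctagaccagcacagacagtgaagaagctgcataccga
Tef promoter (chr15:81802423-81802722, plus strand): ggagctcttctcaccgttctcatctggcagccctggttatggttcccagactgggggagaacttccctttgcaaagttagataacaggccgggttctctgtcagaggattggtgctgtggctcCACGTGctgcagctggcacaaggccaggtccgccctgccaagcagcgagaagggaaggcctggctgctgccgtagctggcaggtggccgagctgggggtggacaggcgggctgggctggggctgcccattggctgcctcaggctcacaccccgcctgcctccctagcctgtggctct
Bhlhe41 promoter (chr6:145865371-145865670, minus strand): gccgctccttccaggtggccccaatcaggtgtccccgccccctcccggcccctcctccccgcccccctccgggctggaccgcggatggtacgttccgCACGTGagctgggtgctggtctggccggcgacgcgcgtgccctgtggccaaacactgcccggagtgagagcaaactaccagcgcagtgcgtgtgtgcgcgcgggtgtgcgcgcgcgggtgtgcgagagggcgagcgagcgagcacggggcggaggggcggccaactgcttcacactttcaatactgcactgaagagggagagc
Per1 promoter (chr11:69098699-69098998, plus strand): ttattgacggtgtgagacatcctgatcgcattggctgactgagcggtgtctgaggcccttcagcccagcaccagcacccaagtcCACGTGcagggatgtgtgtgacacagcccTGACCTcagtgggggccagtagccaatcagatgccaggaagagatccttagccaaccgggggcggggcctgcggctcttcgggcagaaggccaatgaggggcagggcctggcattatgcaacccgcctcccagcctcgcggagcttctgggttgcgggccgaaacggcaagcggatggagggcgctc
The E-boxes began at -116, -58 and -44 relative to the start in Ciart, -127 in Tef, -153 in Bhlhe41 and -166 in Per1, which also held the half-site at -137. Of 35 clock and output genes 27 had a promoter in the table, of which 7 (25.9%) held an E-box, as did 2349 of 32851 promoters of all genes (7.15%). The half-site was in 5 of the 27 (18.5%), as in 16.3% of all. Of the 13 clock genes called with Arntl 11 had a promoter in the table, and 4 of these held an E-box, Ciart, Tef, Bhlhe41 and Coq10b. The windows of Arntl itself and of the called genes Npas2, Dbp, Per3, Cry2, Hlf, Usp2 and Tspan4 held neither motif. Per1, Klf15 and Cry1 held an E-box but were not called with Arntl, with slopes of -0.79 ± 0.15, -0.16 ± 0.06 and 0.06 ± 0.11 (SE). The part of the E-box in these levels was not tested.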

How the data were processed

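Messenger RNA libraries of the free wall of the left ventricle were made with a stranded kit, per the labels. The deposited values are TPM for 24972 gene symbols, made by the authors with STAR and Salmon on mm9 according to the submitters' processing notes. Versions, annotation, library depth and the use of strand were not given in the sources used here. The 15 mitochondrially encoded genes on a prepared list were not in the table. Libraries were grouped by title and group tag.

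Genes were tested on log2(TPM + 1) where 3 or more of the 12 control libraries reached 1 TPM (12768 genes) with limma 3.58.1 (R 4.3.3, intensity trend, Benjamini-Hochberg), with sex as covariate or with 4 group means. The log2 fold changes understate those of low genes. Eligible for naming were, in each direction, the called genes and then those of lowest p, 12 for the day and 5 within sex or for the difference. Their larger group mean had to be 5 TPM or more. Also eligible were the 30 most abundant genes, the 10 largest rank shifts among 200 and, in each list, the 4 members of lowest p. So were the 20 largest and 10 smallest spreads among genes averaging 10 TPM or more. Exceptions are named in the text. Not all eligible genes and not all lists are described. The libraries, the 42 lists and the tests were chosen with earlier results of these data known. The Arntl model was chosen after seeing the data. Lengths and GC content (12682 genes, 99.33%) were those of the longest GENCODE M21 transcript of each gene symbol. Sequences came from RefSeq GRCm38.p6. Residuals of same-numbered libraries of both days correlated positively in every male pair but not in every female pair. This was seen in the data and is not stated in the labels. Some differently numbered libraries correlated more than some of these pairs, so the numbers are not shown to mark pairs. The fit was tested on simulated data. Alternatives were the pseudocount, filters, scaling, quantile normalization, a GC and length correction, a replicate block, all 24 libraries, no sex covariate, array weights, no intensity trend, groups from the tags and leaving out libraries. Python 3.11.15 with pandas 2.3.3, NumPy 2.4.6, SciPy 1.17.1 and Matplotlib 3.10.9 was used for the rest.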

Additional observations from a re-analysis of the deposited data

Results flagged for a closer look

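In each of 224 sets of 6 libraries of 1 day, the highest and the lowest library were compared with the nearest of the others, and 13 stood apart by more than 0.625 of the range of the set. Chance alone sets apart about 1 in 20 sets of independent, normally distributed values. That rate may not hold here, since some of the genes were named for their large spread and some vary together. Of the 13, 6 were in FC28 replicate 2, which had 625.1 TPM of Myl7, 442 TPM of Myl4, 173 TPM of Sln, 83.9 TPM of Myh7, 9.96 TPM of Adipoq and 24.3 TPM of H19, each the highest of the day 28 libraries. In FC56 replicate 2 Myh7 at 66.0 TPM and Myl7 at 6.72 TPM were the highest of the day 56 libraries. MC56 replicate 2, the library with the most Arntl, had 752 TPM of Nppb and 19.6 TPM of Nfil3, a clock repressor. The small nucleolar RNA Snord15b was highest in MC56 replicate 1 among the day 56 libraries, at 9.15 TPM, and in MC28 replicate 2 among the day 28 libraries, at 15.8 TPM. Slc35b1 was lowest in MC28 replicate 3 among the day 28 libraries, at 36.7 TPM.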

How the results depend on the processing

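The number of genes called between the days was 0 in 25 of 26 alternatives other than the tag grouping, with 384 to 1231 genes at an unadjusted p under 0.05 (limma), and 0 with each library left out in turn (425 to 849 unadjusted). It was 1 after GC and length correction. In males it was 0 in all 25 such alternatives, as it was for the difference between the sexes, and in females it was 0 in 24 and 4 with array weights. With groups from the time and treatment tags the counts were 2072 in all (1352 higher and 720 lower), 1053 in males and 546 in females. Over 81 genes there were 2174 values, of which 2132 stayed uncalled (54 of these with another sign, at an unadjusted p of 0.05 or more). Another 26 were called with the same sign under an alternative (25 of them under the tag grouping). The other 16 turned round, all under the tag grouping, and were called there or had an unadjusted p under 0.05. Those 16 log2 fold changes were -0.53 for Abat, -1.02 for Arntl, 1.04 for Ciart, 0.54 for Dbp, -0.64 for Gchfr, -0.34 for Hba-a1, -0.19 for Mfsd4a, 0.21 for Mid1ip1, -0.63 for Npas2, 1.70 for Nppa, 0.41 for Per1, 1.19 for Per2, 0.69 for Per3, 2.43 for Postn, 0.49 for Tef and 0.36 for Ttn, where other libraries are compared by construction.

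The number of genes called with Arntl was 53 after GC and length correction, 13 with the 4 groups as covariate and 6 to 21 with a library left out. The cause was not tested. The median spread was 0.164 with a pseudocount of 0.1, against 0.148, and 0.143 to 0.151 with a library left out. The day 56 minus day 28 difference in genes at a TPM of at least 1 ran from -66.7 to 19.3 with a library left out and was positive without MC56 replicate 1 (19.3), FC28 replicate 1 (2.1) or FC28 replicate 2 (8.1). That of the share held by the 10 most abundant genes ran from -0.384 to -0.114. Replicate numbers recur in the labels of each group. The correlation of residuals between the same-numbered day 56 and day 28 libraries was 0.596, 0.282 and 0.216 in males and 0.163, -0.0217 and -0.108 in females, so the correlation was over 0.1 in every male pair, but not in every female pair or over both sexes. MC56 replicate 2 correlated more with MC28 replicate 3 (0.369) than with MC28 replicate 2 (0.282). MC56 replicate 1 and FC28 replicate 2, which differ in sex and number, reached 0.459. The replicate numbers are therefore not shown to mark pairs. A replicate block gave 0 calls over both sexes (855 unadjusted) and 0 in males (448, against 318 without it). Together with the GC and length correction it gave 0 (1231) and 0 in males (690).

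The depth of the libraries is unknown, so low genes carry a counting error that cannot be given. With 6 libraries a day, an interval inside 1.25-fold was reached by 82.6% of genes averaging 10 TPM or more, and larger differences remained possible in variable or low genes.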
